A study of Mus musculus with 6 samples.

Results

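Heterotrimeric G proteins carry signals from receptors at the cell surface. They are built from an alpha, a beta and a gamma subunit, and an activated receptor makes the alpha subunit exchange GDP for GTP, after which alpha and the beta-gamma pair act on separate effectors. The 9 genes described here are the 4 conventional beta subunits, Gnb1, Gnb2, Gnb3 and Gnb4, and 5 alpha subunits, Gnao1, Gnai1, Gnai2, Gnai3 and Gnaz. These alpha subunits belong to the inhibitory class, known for lowering cyclic AMP and, through the beta-gamma pairs they release, for opening potassium channels and restraining calcium channels at synapses. They are the class on which the RGS proteins bound by Gb5 act. Gb5, the product of Gnb5, is the divergent member of the beta family: in neurons it pairs with RGS proteins of the R7 group in place of a gamma subunit, and these pairs speed GTP hydrolysis on Gi and Go. The rule lists the genes by symbol and uses no measured value, though it was written with earlier results of these data known. They had 20 probes annotated to 1 gene each (8 for the beta and 12 for the alpha subunits) among 45037 probes, and no probe named a member together with another gene. Each probe is a set of short oligonucleotides summarised to 1 signal.

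The study measured total RNA from brain tissue, cerebellum by the series title, on single-colour Affymetrix arrays. There were 3 wild-type mice (arrays 1, 2 and 3) and 3 Gb5-deficient mice (arrays 4, 5 and 6, called knockout here), described as biological replicates. By the labels the animals came from littermate cohorts of matched age and sex. The labels give no age, strain, allele construction or treatment, and name no other allele in either group. Comparing the genotypes asks whether transcripts of the remaining beta subunits, or of the alpha subunits that Gb5 complexes act on, were present at another level in the absence of Gb5.

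Values are log2 signals, so a difference of 1 is a factor of 2 in signal. The medians of the 6 arrays lay between 6.48 and 6.57. Purkinje cell markers (4 of 6 with a probe; Calb1 12.98, Pcp4 13.72 and Pcp2 12.62 in wild type) and granule cell markers (6 of 6; Gabra6 12.63, Zic1 12.84) were bright, and none of the markers tested passed between genotypes. Knockout array 6 stood apart: 1 probe of Xist read 6.64 against 11.11 to 11.35 on the others, and a probe of the Y-linked gene Eif2s3y read 11.80 against 3.19 to 3.43, so by these signals sex was not matched in the knockout group. The Gapdh 3′ control probe exceeded the 5′ probe by 1.58 on array 6 and by 1.03 to 1.14 on the others, and for actin by 3.18 against 2.76 to 2.95, a measure that responds to RNA quality and labelling. Changes of the 9 genes without each array are given below for that reason.

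The Gnb5 signal itself fell in the arrays labelled Gb5-deficient. On its brighter probe the wild-type arrays gave 8.80, 8.51 and 8.70 and the knockout arrays 3.65, 3.36 and 2.96, a log2 change of -5.35 (SE 0.18, limma adjusted p = 4.33e-06). The knockout values lay below the filter on low signal (4.70), so the size of this fall is one of signal and not an RNA ratio. No such change was seen for any of its paralogs. None of the 9 genes passed an adjusted p of 0.05 in either direction (limma, with Benjamini-Hochberg adjustment over 14067 genes), and 0 of 9 had an unadjusted p under 0.05. Of all genes tested, 5 (0.0355%) passed and 8.57% had an unadjusted p under 0.05. In 0 of 9 genes did the 3 knockout arrays all lie above or all lie below the 3 wild-type arrays, against 10.1% of all genes for above and 4.82% for below. The median log2 change was 0.13 over the 9 genes and 0.03 over all genes. Over the 18 tested probes of these genes it was 0.05, and over all probes 0.01. With 1 array left out, the median of the 5 alpha subunits ran from 0.01 (without array 5) to 0.18 (without array 3). That of the 4 beta subunits ran from 0.02 to 0.07. All 9 genes passed the filter on low signal, by a mean over both genotypes.

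Over the brightest probe of each gene, the highest upper 95% limit was 0.54 (log2, for Gnb2), a factor of 1.45, and the lowest lower limit was -0.28 (for Gnai3), a factor of 0.82. Other probes of the same genes allowed more, up to 0.82 for a dimmer probe of Gnai1 and down to -0.88 for one of Gnai3. These intervals concern array signal of transcripts, which can saturate at the bright end, and not protein.

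**Figure D1:**
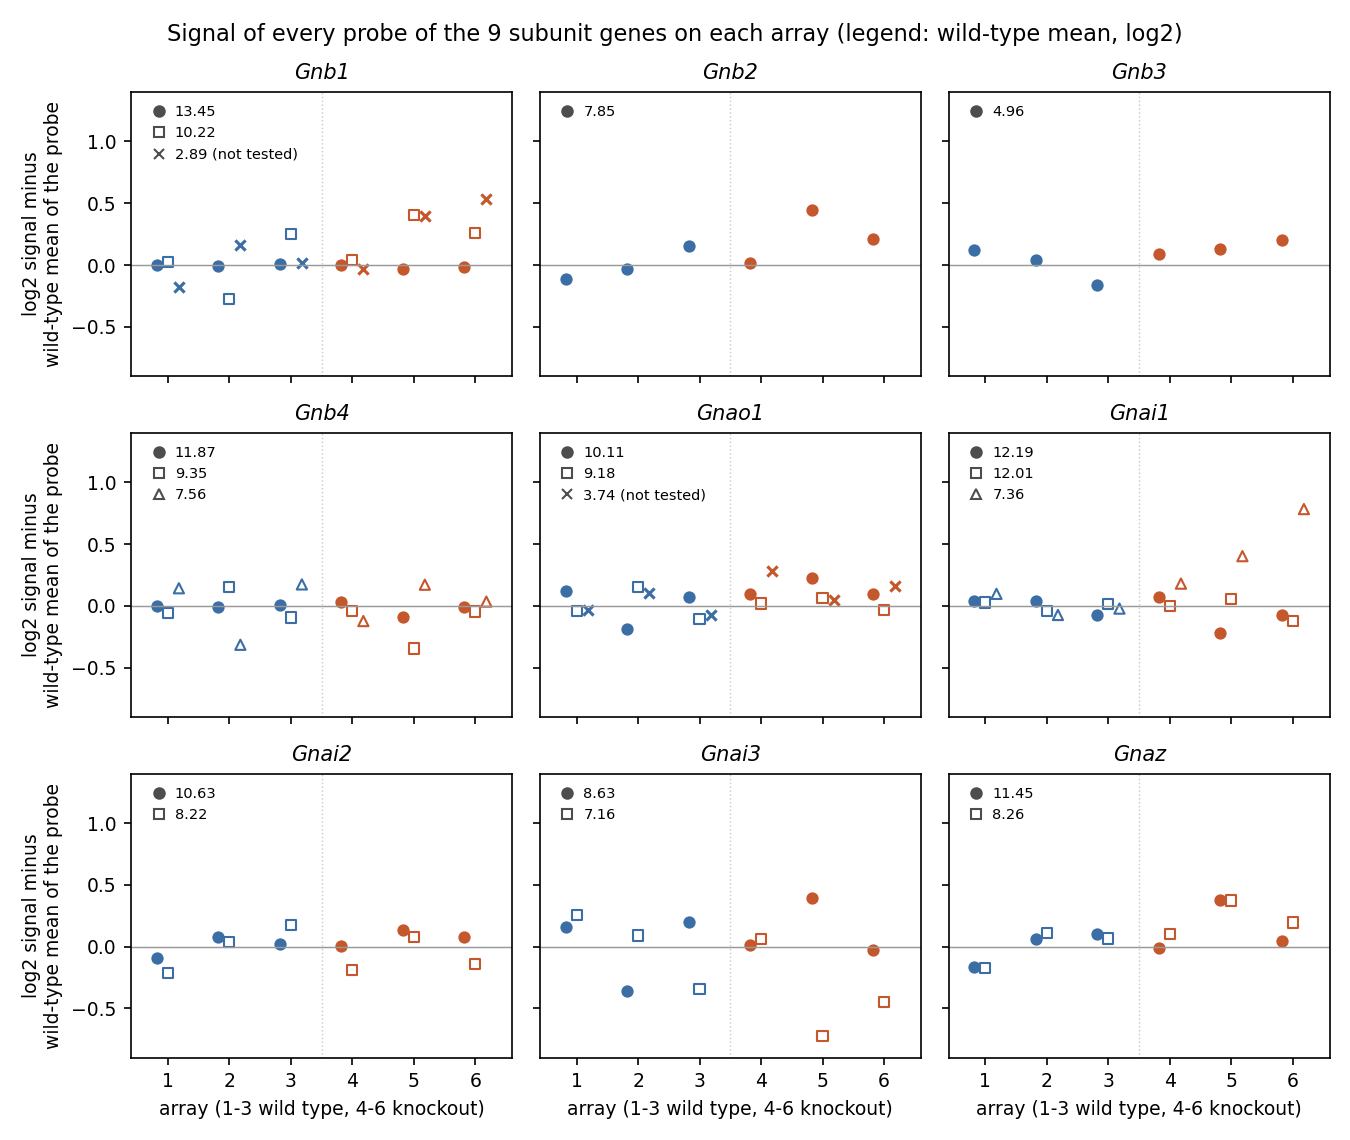
Signal of each probe on each array minus that probe's wild-type mean (log2, vertical axis), by array number (horizontal axis), with wild-type arrays in blue and knockout arrays in orange. Filled circles are each gene's brightest probe, open symbols its other tested probes and crosses probes below the filter; the triangles of Gnai1 stand higher on arrays 4, 5 and 6, and the brightest probes overlap between genotypes in all 9 panels.

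Of the beta subunits, Gnb1, a widely expressed subunit that forms dimers with most gamma subunits, gave the brightest probe of the set. That probe (1454696_at) read 13.44, 13.44 and 13.45 on wild-type arrays 1 to 3 and 13.45, 13.41 and 13.43 on knockout arrays 4 to 6, and stood at the 99.8th percentile of all probe means in wild type. Its log2 change was -0.02 (SE 0.04; 95% interval from -0.10 to 0.06; limma adjusted p = 0.874). The arrays spanned a very narrow range, and the groups overlapped. A second Gnb1 probe (1417432_a_at) lay lower on the scale, at 10.25, 9.94 and 10.47 on the wild-type and 10.26, 10.62 and 10.48 on the knockout arrays. Its log2 change was 0.24, with an interval from -0.10 to 0.58 and an adjusted p of 0.650 in the fit of single probes. Arrays 5 and 6 were the highest on it and wild-type array 2 the lowest; the change was 0.10 without array 2 and 0.36 without array 3. The change on the second probe minus that on the first was 0.25, with an interval from -0.14 to 0.65. Whether the first probe was near the top of the range the scanner can resolve was not tested. The third Gnb1 probe, at 2.89 in wild type and 3.19 in knockout, lay below the filter and was not tested.

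Gnb2, the other broadly expressed beta subunit, had a positive change that did not pass. Its one probe (1450623_at) read 7.73, 7.81 and 8.00 on wild-type arrays 1 to 3 and 7.86, 8.29 and 8.06 on knockout arrays 4 to 6. Knockout array 4 lay among the wild-type arrays, and array 5 was the highest. Knockout differed from wild type by a log2 change of 0.22 (SE 0.14; interval from -0.09 to 0.54; limma adjusted p = 0.621). It was 0.11 without array 5 and 0.33 without array 4.

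Gnb4, a beta subunit expressed in brain as well as other tissues, was covered by 3 probes that lay on both sides of 0. The brightest (1419470_at) read 11.87, 11.86 and 11.88 on wild-type arrays 1 to 3 and 11.90, 11.78 and 11.86 on knockout arrays 4 to 6. Its log2 change was -0.02 (SE 0.06; interval from -0.16 to 0.11; limma adjusted p = 0.897), and 0.01 without array 5, which held the lowest signal. The second probe (1439632_at) averaged 9.35 ± 0.13 in wild type and 9.21 ± 0.17 in knockout (SD, n = 3 each), a log2 change of -0.15 that was -0.04 without array 5. The third (1419469_at) averaged 7.56 ± 0.27 and 7.59 ± 0.15 (SD, n = 3 each), a change of 0.03. Array 5 was the lowest on the first and second probe and the second highest on the third, so the probes did not rank the arrays alike.

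Gnb3, the beta subunit known from cone photoreceptors and taste cells, had a dim probe. Its probe (1449159_at) read 5.08, 5.00 and 4.79 on wild-type arrays 1 to 3 and 5.04, 5.08 and 5.16 on knockout arrays 4 to 6, close to the filter at 4.70 and at the 33.0th percentile of probe means in wild type. The resulting log2 change was 0.14 (SE 0.12; interval from -0.14 to 0.42; limma adjusted p = 0.703). Wild-type array 3 was the lowest, and without it the change was 0.06. The probes of photoreceptor markers were dim as well, between 4.04 (Gnat1) and 4.80 (Arr3) in wild type. No detection calls were used, so it is not known whether the Gnb3 signal exceeded background.

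**Figure D2:**
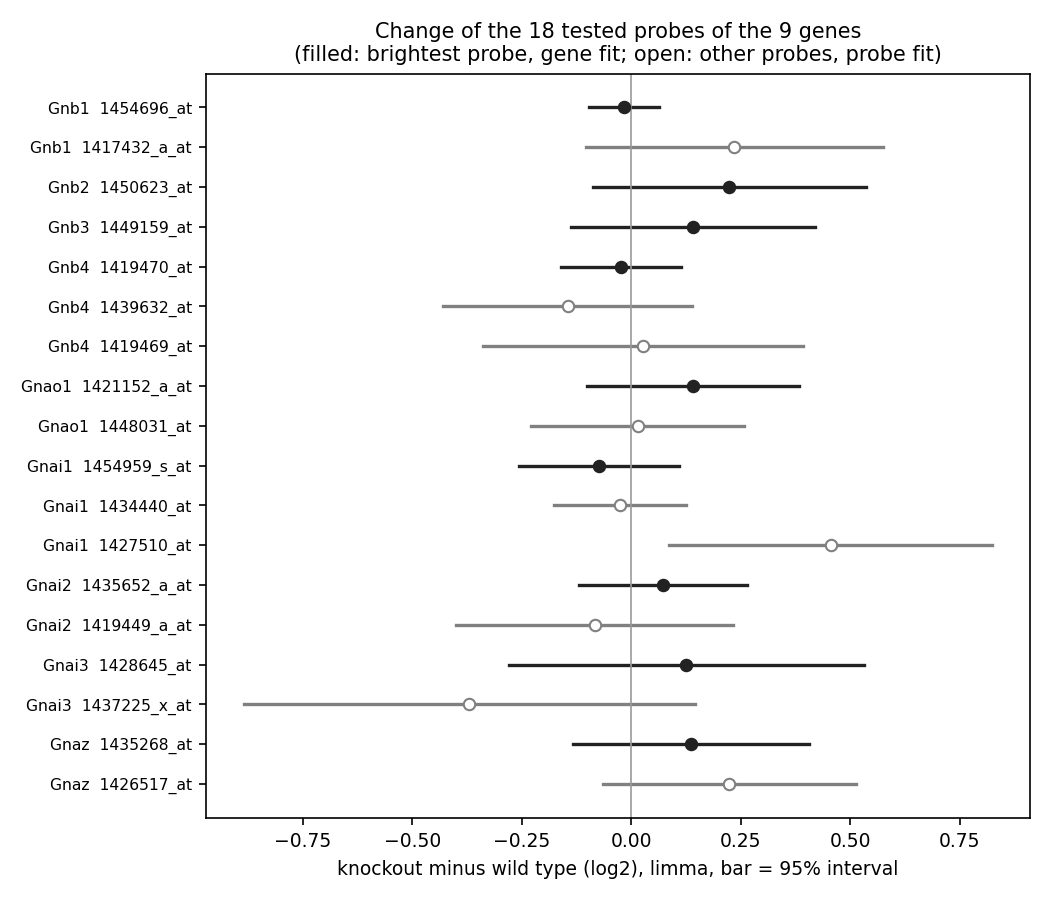
Log2 change from wild type to knockout (horizontal axis) of the 18 tested probes, named by gene and probe on the vertical axis, with 95% intervals from limma as bars. Filled points are the brightest probe of each gene and open points its other probes; the interval of 1 probe, 1427510_at of Gnai1 (from 0.09 to 0.82), does not include 0.

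Of the alpha subunits, Gnao1 encodes Go, the most abundant G protein alpha subunit of brain membranes and a main substrate of R7 RGS complexes. Its brightest probe (1421152_a_at) read 10.22, 9.92 and 10.18 on wild-type arrays 1 to 3 and 10.21, 10.33 and 10.21 on knockout arrays 4 to 6. Wild-type array 2 was low, and the others lay close together. The log2 change was 0.14 (SE 0.11; interval from -0.10 to 0.38; limma adjusted p = 0.667) and 0.05 without that array. A second probe (1448031_at) averaged 9.18 ± 0.14 in wild type and 9.20 ± 0.05 in knockout (SD, n = 3 each), a log2 change of 0.01 that was -0.01 with array medians subtracted. Here array 2 was the highest of the 6. The third Gnao1 probe (1460383_at) averaged 3.74 and 3.90 and was below the filter. Gnao1 gives rise to alternative transcripts, and the files do not say which of them each probe detects.

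Gnai1, which encodes an inhibitory alpha subunit enriched in brain, held the one member probe with separated groups. This probe (1427510_at) read 7.46, 7.29 and 7.34 on wild-type arrays 1 to 3 and 7.54, 7.77 and 8.15 on knockout arrays 4 to 6. The 3 knockout arrays lay above the 3 wild-type arrays, with array 6 the highest, as they did in 9.09% of all probes tested and in 1 of the 18 tested here. Knockout differed from wild type by a log2 change of 0.45 (interval from 0.09 to 0.82), with an unadjusted p of 0.0216 and a limma adjusted p of 0.539 when each of 31511 probes was tested, so it did not pass. With 1 array left out the change ran from 0.29 (without array 6) to 0.59 (without array 4). Array 6 also stood apart in sex-linked and 3′ to 5′ signals. None of the 18 tested member probes passed, against 0.0349% of all probes, and 1 of 18 had an unadjusted p under 0.05, against 8.67% of all probes.

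The other Gnai1 probes were far brighter and gave changes near 0. The brightest (1454959_s_at) read 12.23, 12.22 and 12.12 on wild-type arrays 1 to 3 and 12.26, 11.97 and 12.12 on knockout arrays 4 to 6, a log2 change of -0.07 (SE 0.08; interval from -0.26 to 0.11; limma adjusted p = 0.753). Array 4 was the highest and array 5 the lowest, both knockout. The next (1434440_at) averaged 12.01 ± 0.04 and 11.99 ± 0.09 (SD, n = 3 each), a change of -0.03 that became 0.02 without array 6. Both of these probes were designed on the same sequence record and may share target. The change of probe 1427510_at minus that of the brightest probe was 0.53 (interval from 0.08 to 0.98; unadjusted p = 0.0278 in a limma fit of such differences, adjusted p = 0.595). In that fit of 11883 probe pairs from all genes, 0% passed an adjusted p of 0.05 and 7.71% had an unadjusted p under 0.05. Of the 9 pairs from the members, 0 passed and this one had an unadjusted p under 0.05.

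Gnai2, an inhibitory alpha subunit expressed in most cell types and prominent in glia, vessels and blood cells, had a change near 0 on both probes. Its brightest probe (1435652_a_at) read 10.54, 10.71 and 10.65 on wild-type arrays 1 to 3 and 10.64, 10.76 and 10.71 on knockout arrays 4 to 6. The arrays of the 2 genotypes interleaved. The resulting log2 change was 0.07 (SE 0.08; interval from -0.12 to 0.26; limma adjusted p = 0.768). The second probe (1419449_a_at) averaged 8.22 ± 0.20 and 8.14 ± 0.14 (SD, n = 3 each), a change of -0.08. Among markers of other cells that express Gnai2, the 6 microglial genes tested had changes from -0.13 to 0.22 and the 5 endothelial genes from -0.22 to 0.12, with 0 passing in both lists. In red cell markers 3 of 4 had knockout arrays all below wild type (Alas2 -2.08, Slc4a1 -1.90, Hbb-b2 -0.60), against 4.82% of all genes. The groups overlapped for Hba-a2, with a change of 0.08. None of the 4 passed, and the part of red cells in Gnai2 signal was not tested. In bulk tissue, fewer cells of a type and less RNA per cell cannot be told apart.

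Gnai3, the remaining and broadly expressed Gi alpha subunit, had the widest interval of the 9 genes. Its brightest probe (1428645_at) read 8.80, 8.28 and 8.83 on wild-type arrays 1 to 3 and 8.65, 9.03 and 8.60 on knockout arrays 4 to 6. The wild-type arrays alone spanned a wider range than the genotypes differed by. The log2 change was 0.13 (SE 0.18; interval from -0.28 to 0.53; limma adjusted p = 0.808), and -0.05 without wild-type array 2. The second probe (1437225_x_at), of a type whose oligonucleotides may also match other transcripts, pointed the other way. It read 7.42, 7.25 and 6.82 on wild-type arrays 1 to 3 and 7.22, 6.44 and 6.72 on knockout arrays 4 to 6, a log2 change of -0.37 (interval from -0.88 to 0.15; adjusted p = 0.642 when each probe was tested). Array 5 was the highest on the first probe and the lowest on the second, and without it the second probe's change was -0.19. The difference between the 2 changes, -0.50, had an interval from -1.30 to 0.31, so they could not be separated.

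Gnaz encodes Gz, an inhibitory alpha subunit of neurons and platelets with a slow GTPase and no site for pertussis toxin. Its brightest probe (1435268_at) read 11.28, 11.51 and 11.55 on wild-type arrays 1 to 3 and 11.43, 11.82 and 11.49 on knockout arrays 4 to 6. Array 5 was the highest and wild-type array 1 the lowest. Knockout differed from wild type by a log2 change of 0.14 (SE 0.12; interval from -0.13 to 0.40; limma adjusted p = 0.703) and 0.01 without array 5. The second probe (1426517_at) ordered the extremes alike, at 8.09, 8.37 and 8.33 on the wild-type and 8.36, 8.63 and 8.46 on the knockout arrays. Its log2 change was 0.22 (interval from -0.07 to 0.51; adjusted p = 0.630 when each probe was tested). Both probes of Gnaz had positive changes, as had both tested probes of Gnao1, 1 of which turned sign with array medians subtracted.

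**Figure D3:**
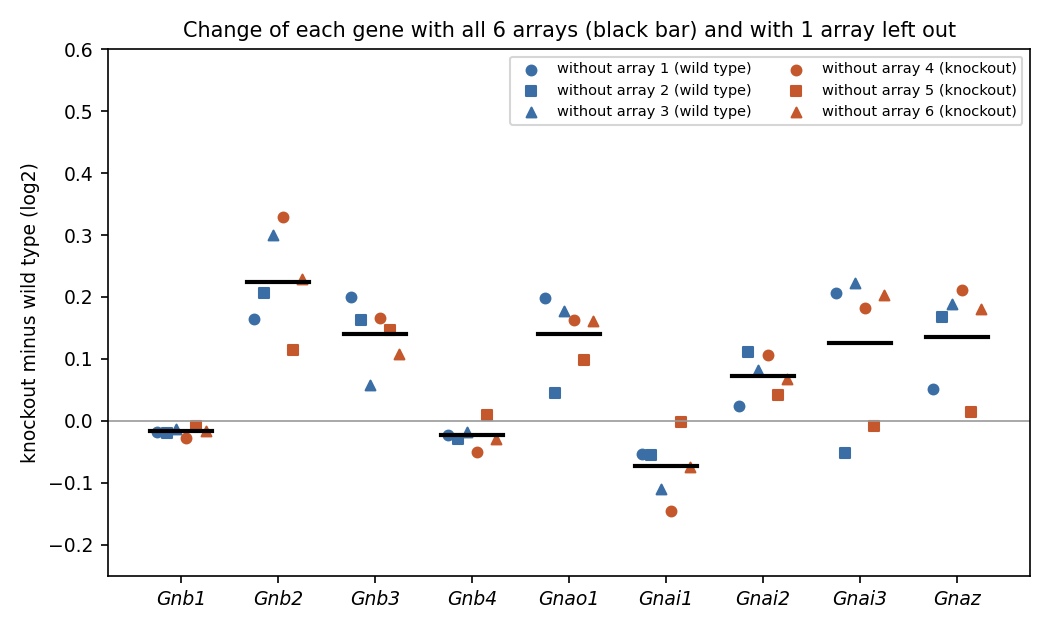
Log2 change from wild type to knockout (vertical axis) of each gene's brightest probe, with all 6 arrays (black bars) and with 1 array left out (points, blue for a wild-type and orange for a knockout array). Gnb4 and Gnai3 have points on both sides of 0, and the values of Gnb2 run from 0.11 to 0.33.

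Leaving out knockout array 4 or 5 gave the ends of the range for Gnb1, Gnb2, Gnb4, Gnai1 and Gnaz. Array 5 gave the highest signal for 5 of the 9 genes (Gnb2, Gnao1, Gnai2, Gnai3 and Gnaz) and the lowest for 3 (Gnb1, Gnb4 and Gnai1). Over all genes tested it was the highest in 27.7% and the lowest in 19.6%. Array 4 was the highest for 2 members and the lowest for 0, against 11.6% and 8.58% of all genes. Array 6 was the highest for 1 member, Gnb3, and the lowest for none, against 23.3% and 17.9% of all genes. Without array 6 the 9 brightest probes kept their signs. Without array 5 the changes of Gnb4 and Gnai3 turned sign, to 0.01 and -0.01.

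No order of abundance among the subunits was drawn from the signals, because the brightness of a probe depends on its own sequence as well as on its target. This is visible within genes: Gnb1 probes stood at the 99.8th, 86.0th and 3.63rd percentile of wild-type probe means, and Gnai1 probes at the 97.3rd, 96.7th and 59.4th. By brightest probe, Gnb4 stood at the 96.0th percentile, Gnaz at the 94.0th, Gnai2 at the 88.8th and Gnao1 at the 85.1st. Gnai3 stood at the 72.4th, Gnb2 at the 64.4th and Gnb3 at the 33.0th. Of the 9, the Gnb3 probe was the one nearest to the dim end.

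For each member the tested gene with the most similar profile over the 6 arrays was sought, as a description, by Pearson's r of log2 signal. With 6 arrays and 14067 genes, high values of r are found for any profile. The nearest was Mocs2 for Gnb1 (r = 0.976), 1110051M20Rik for Gnb2 (r = 0.999), Arsg for Gnb3 (r = 0.978) and Ice2 for Gnb4 (r = 0.994). For the alpha subunits it was Nkiras1 for Gnao1 (r = 0.995), Septin7 for Gnai1 (r = 0.998), Prep for Gnai2 (r = 0.998), Kirrel for Gnai3 (r = 0.996) and 3830408C21Rik for Gnaz (r = 0.999). None of the 9 nearest genes was itself a G protein subunit, and none passed between genotypes.

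In 4 further lists of G protein genes, other alpha subunits, gamma subunits, alpha regulators, and effectors with kinases, no tested gene passed. Among the other alpha subunits 7 of 11 listed genes were tested and 0 passed, with a median log2 change of 0.04. The stimulatory subunit Gnas had a change of 0.04, and the Gq-class subunits Gnaq and Gna11 had changes of -0.01 and 0.23. Gamma subunits, the partners with which Gnb1 to Gnb4 form dimers, gave 0 passing of 10 tested and a median of 0.01. The neuronal Gng2 and Gng3 had changes of 0.02 and 0.01, and Gng13, which also pairs with conventional beta subunits, one of -0.01.

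Regulators and chaperones of alpha subunits had a median of 0.20, with positive changes in 12 of 14 tested genes and 0 passing in either direction. Array 6 was the highest of the 6 arrays for 7 of the 14, against 23.3% of all genes. With 1 array left out the median ran from 0.13 (without array 6) to 0.26 (without array 4). Without array 6, 10 of 14 changes were positive. Across all genes 7982 of 14067 had positive changes, and the median was 0.03. The exchange factors and chaperones Ric8a and Ric8b, which help newly made alpha subunits fold, had changes of 0.05 and 0.27 (limma adjusted p = 0.574 for Ric8b). Knockout arrays all lay above wild type in 1 of the 14, Ric8b, against 10.1% of all genes. The GoLoco proteins Gpsm1 and Pcp2, which hold Gi and Go in the GDP form, had changes of -0.02 and 0.06. Rgs14 was below the filter. Effectors and kinases gave 0 passing of 23 tested and a median of 0.06. The GIRK channel subunits Kcnj3 and Kcnj6, opened by beta-gamma dimers, had changes of -0.09 and 0.10, the adenylyl cyclase Adcy1 one of 0.05, and Plcb4, a phospholipase of Purkinje cells, one of 0.06. In 2 of the 23, Kcnj6 and Plcb4, the knockout arrays all lay above wild type, against 10.1% of all genes.

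**Figure D4:**
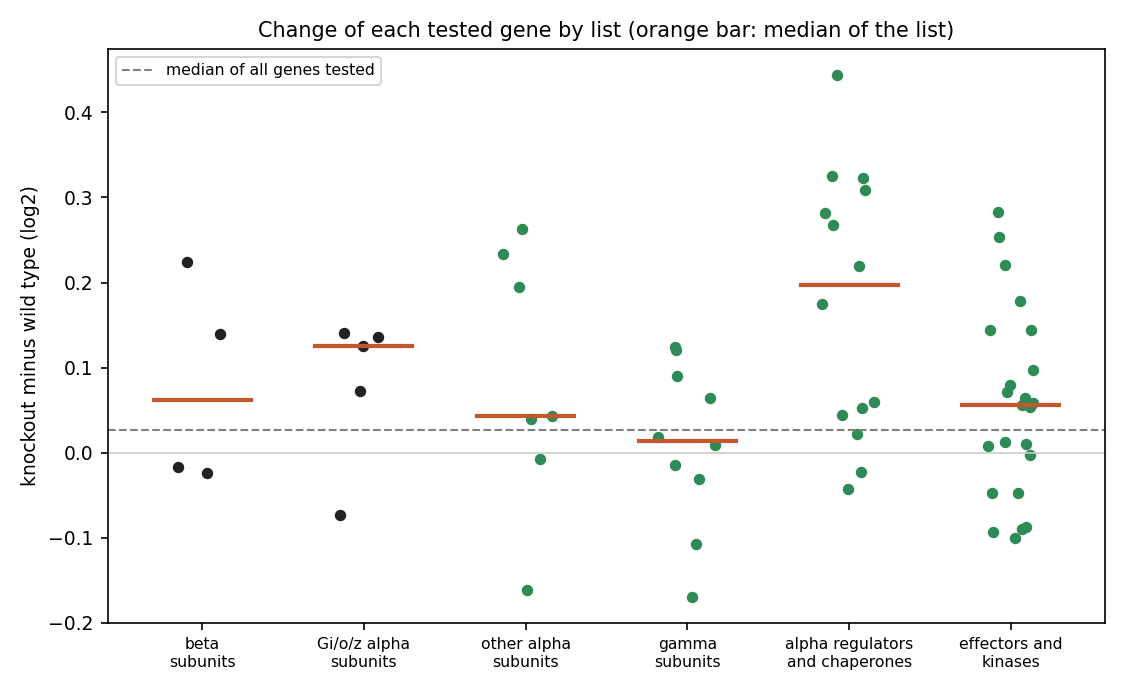
Log2 change from wild type to knockout (vertical axis) of every tested gene in each list (horizontal axis), with the 9 subunit genes in black, the other lists in green, list medians as orange bars and the median of all genes tested, 0.03, as a dashed line. The list medians run from 0.01 (gamma subunits) to 0.20 (alpha regulators and chaperones).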

How the data were processed

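The authors' deposited values are log2 signals for each probe on each array. The submitters' processing notes name RMA and Partek without versions. RMA brings arrays to 1 distribution, so a global change would not be seen. Scanner files and detection calls were not used here. Of 45101 probes 64 were controls; GEO's platform annotation named 1 gene for 34945, several for 932 and none for 9160, with symbols updated through Entrez identifiers (RefSeq, GRCm38.p6, 34741 matched). The probe of highest mean over the 6 arrays stood for each of 18193 genes. Means at or below 4.70, the 30th percentile over probes, were left out, leaving 14067 genes and 31511 probes.

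Knockout minus wild type was tested with limma 3.58.1 (R 4.3.3, empirical Bayes with intensity trend, two-sided, Benjamini-Hochberg over all genes, or all probes, threshold 0.05). The fit was also run on simulated data, with noise drawn independently for each gene and array, so without an array that stands apart. No result here rests on that run. The number of arrays limits precision (median SE of a gene 0.12). Values of brightest probes come from the gene fit and of other probes from the probe fit. The fit of differences between 2 probes of a gene uses no trend; it and the list medians without single arrays were added after the data were seen. Members and lists were chosen with earlier results of these data known. Named genes are the members, Gnb5, any passing list gene, a fixed set by role (of which Grk2 had no listed probe and 2 alpha subunits are not reported here) and each member's nearest profile. Alternatives were other filters, scalings, probe rules, variance models, array weights, thresholds and each array left out.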

Additional observations from a re-analysis of the deposited data

How the results depend on the processing

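No member passed in any of the 11 alternatives with all arrays or with any single array left out. Of 143 recomputed log2 changes of the 18 member probes or genes, 7 turned sign. Other filters, other variance models and testing every probe on its own leave a log2 change as it was. A sign could therefore turn only with the other scalings, the mean of probes and the array weights. With the mean of a gene's probes the changes were 0.17 for Gnb1, 0.12 for Gnai1, -0.00554 for Gnai2 and -0.12 for Gnai3. That mean takes in probes below the filter, for Gnb1 the one at 2.89 in wild type and 3.19 in knockout. Array medians subtracted gave -0.0109 for Gnao1 probe 1448031_at. Array weights gave -0.00111 for Gnai3 and -0.0490 for Gnb4 probe 1419469_at. With single arrays left out 10 of 108 turned sign. The ranges were -0.0526 to 0.223 for Gnai3, -0.0497 to 0.00923 for Gnb4, -0.131 to 0.114 for Gnb4 probe 1419469_at, -0.0401 to 0.0909 for Gnao1 probe 1448031_at, -0.0649 to 0.0240 for Gnai1 probe 1434440_at and -0.192 to 0.00478 for Gnai2 probe 1419449_a_at.

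Over all features, 5 genes and 11 probes passed. The counts were 8 genes without a filter, 3 genes and 4 probes at the 50th percentile, and 7 probes with no intensity trend. At a threshold of 0.01 they were 3 genes and 7 probes. Every probe tested on its own is the probe fit itself, with the same 11 probes. Leaving out single arrays gave 2 to 10 genes and 6 to 19 probes. The causes were not tested. An alternative pseudocount was planned for linear values and was not run. No paired analysis was possible because the replicate numbers run from 1 to 6 and none is shared between genotypes.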
